A study of Mus musculus with 15 samples.

Results

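The response of inguinal white adipose tissue to CL was measured by RNA sequencing in 2-month-old C57BL/6 mice. The data are the 8 libraries of that age among the 15 of the series, 4 from mice given vehicle (Young_Ctrl 1 to 4) and 4 from mice given CL (Young_CL 1 to 4), and all 15288 of 24015 genes with enough counts were tested. All mice had first spent 2 weeks at thermoneutrality, the ambient temperature at which a mouse needs no extra heat production, and then received 5 days of intraperitoneal injections. Cardiolipin is how the labels spell out CL, which would be a lipid of the inner mitochondrial membrane, whereas CL is also the common short name of an agonist of the β3-adrenergic receptor. The sources used here do not settle which was injected, so it is called CL throughout. The 7 libraries of 12-month-old mice (3 vehicle, 4 CL), treated in the same way, serve for the comparison between ages, and aged vehicle replicate 2 was not analysed here. No label ties a library to its own animal, and the p-values therefore reflect no more than the spread between these samples, which may be technical.

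The inguinal pad stores triglyceride in white adipocytes, and it can form beige adipocytes that burn fuel to make heat. In the textbook pathway, noradrenaline acts on β-adrenergic receptors, cAMP rises, protein kinase A releases fatty acids from the lipid droplet and switches on thermogenic genes, and UCP1 lets protons leak across the inner mitochondrial membrane. Such cells need many mitochondria, fatty acid oxidation, fuel uptake and, when stimulated for days, renewed lipid synthesis.

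Total counts ran from 7066687 to 14796440 in the vehicle libraries and from 6115542 to 30621448 in the CL libraries. Some libraries stood apart in their cell markers. The mean log2 CPM (counts scaled to library size) of 26 skeletal muscle markers was 3.71, 3.52, 1.56 and 3.05 in Young_Ctrl 1 to 4 and 6.05, 6.22, 5.74 and 1.83 in Young_CL 1 to 4, so Young_CL 4 alone among the CL libraries was poor in muscle transcripts. Young_CL 4 was also low in stromal and macrophage markers (4.86 and 4.72), and Young_Ctrl 1 was high in adipocyte markers (10.28, against 9.49, 9.14 and 8.90 in the other vehicle libraries). The B cell and lymph node markers lay at 5.93 to 6.20 under vehicle and at 5.27 to 5.64 after CL, without overlap. The defining markers of adipocytes, T cells, B cells, macrophages, stromal and endothelial cells were detected in every library, except the lymph node gene Ccl21a, at 0 in 6 of the 8. Of the epithelial keratin genes Krt14 was at 0 in 6 libraries and Krt8 in 3. The part of these cell mixtures in the results below was not tested, except as the values given beside them.

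**Figure D1:**
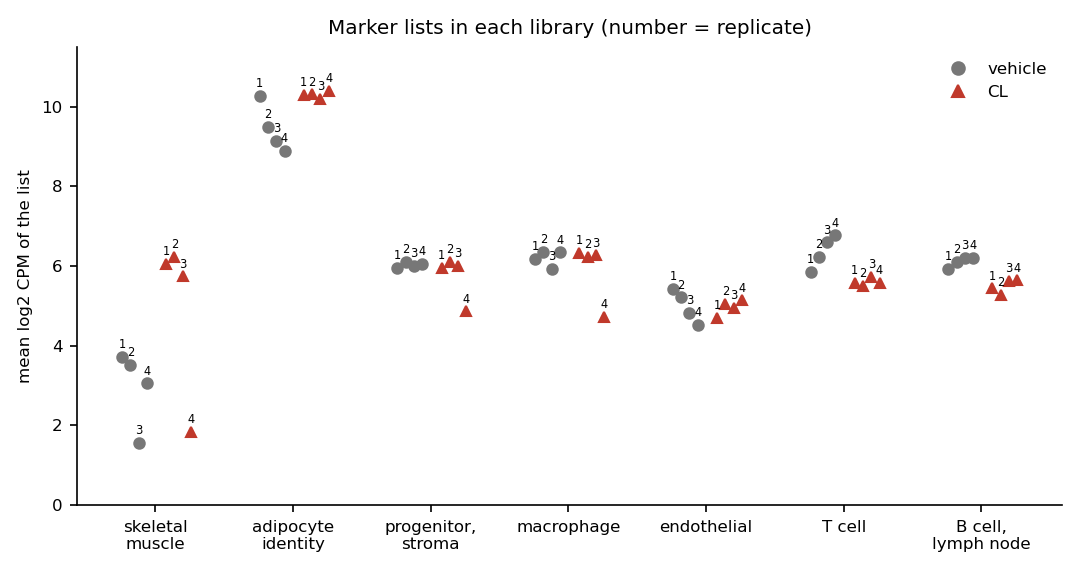
Mean log2 CPM of 7 cell marker lists in each 2-month library (grey circles, vehicle; red triangles, CL; numbers are replicates). Young_CL 1, 2 and 3 sit near 6 for skeletal muscle and Young_CL 4 near the vehicle libraries, while the 2 lymphocyte lists show no overlap between the groups.

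CL was compared with vehicle at 2 months to ask which genes and processes of the pad respond to it. The response reached many genes: 6706 genes (43.9% of those tested) differed at an adjusted p under 0.05, 3323 higher (21.7%) and 3383 lower (22.1%). Large rises outnumbered large falls: 1128 genes (7.38%) rose and 321 (2.1%) fell by at least 2-fold. The libraries of the groups did not overlap for 5210 genes (34.1%), and the median log2 change of all genes was -0.068. These shares are the background for each gene group below. The number of calls depended on what else was in the model. It was 2974 (1859 higher, 1115 lower) without the 5 muscle-rich libraries of the series, a fit that keeps only Young_CL 4 in the CL group and assumes that it varies like the other groups. Adding the B cell score (that of B cell and lymph node markers) to the model left 928 genes called (689 higher, 239 lower), and with the adipocyte score 2255 (1406 and 849). Both scores differ between the treatment groups, so their part and that of CL cannot be told apart. Upper-quartile scaling, which moves the median of all genes to -0.154, split the calls into 2839 higher and 4491 lower. In every list below, counts without the muscle-rich libraries rest on Young_CL 4 as the only CL library. They may describe that library and not CL.

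Of the 10 largest rises, 7 were on the list of thermogenic effectors. The fatty acid elongase gene Elovl3, a marker of brown fat, stood at 0.263, 0, 0.351 and 0.278 CPM under vehicle and 82.4, 50.3, 60.0 and 64.5 CPM after CL, and no fold is given because the vehicle libraries were at or near 0. Dio2, whose product converts thyroid hormone to its active form, stood at 1.97, 1.72, 0.759 and 0.779 CPM under vehicle and 69.8, 66.1, 62.3 and 86.8 CPM after CL (log2 change 5.90, SE 0.32, adjusted p = 1.3e-08). For both genes the groups were far apart, and every CL library exceeded every vehicle library. Ucp1, the proton carrier itself, stood at 26.4, 9.11, 8.59 and 7.74 CPM under vehicle and 606, 340.3, 323 and 375 CPM after CL (log2 change 5.04, SE 0.43, adjusted p = 8.4e-07). Young_Ctrl 1 had the highest vehicle level of Ucp1, and the groups still did not overlap. Cidea, a lipid droplet protein of brown and beige fat, stood at 119.97, 53.9, 29.9 and 30.5 CPM under vehicle and 893, 766, 652 and 906 CPM after CL (log2 change 3.79, SE 0.39, adjusted p = 3.7e-06). Otop1, a proton channel gene, stood at 6.58, 4.13, 3.04 and 1.84 CPM under vehicle and 85.6, 76.7, 80.2 and 94.8 CPM after CL (log2 change 4.55, SE 0.27, adjusted p = 3.9e-08). Its groups did not overlap. Clstn3, whose locus also yields an adipocyte transcript that gene counts cannot separate, stood at 19.3, 6.62, 5.20 and 4.23 CPM under vehicle and 127, 127, 117 and 129 CPM after CL (log2 change 3.92, SE 0.44, adjusted p = 1.3e-05). Gys2, the glycogen synthase known from liver, stood at 19.6, 2.58, 2.22 and 2.50 CPM under vehicle and 98.3, 74.7, 72.7 and 109.95 CPM after CL (log2 change 3.93, SE 0.62, adjusted p = 3.5e-04). Its Young_Ctrl 1 value lay far above the other vehicle libraries but below all CL libraries. The peroxisomal thiolase gene Acaa1b stood at 14.2, 11.9, 8.12 and 7.90 CPM under vehicle and 165, 171, 163 and 206 CPM after CL (log2 change 4.10, SE 0.20, adjusted p = 7.7e-09), a value that is uncertain because a near-identical paralog can share its reads.

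Of the 20 thermogenic effectors listed, 19 of 20 members rose while 0 fell (median 3.19), against 21.7% of all genes rising. The 1 member not called, the nucleoside transporter gene Slc29a1 (log2 change -0.11), is named because it is the exception. Letmd1, a mitochondrial gene of brown fat, rose by 2.003, Aspg by 3.64 and Kcnk3, a potassium channel that sets the membrane potential, by 1.91. Plin5, which tethers lipid droplets to mitochondria, rose by 2.38, and the nuclear receptor gene Ppara by 1.99. Without the muscle-rich libraries the calls were 19 higher and 1 lower in thermogenic effectors. With the B cell score they were 12 higher and 0 lower in thermogenic effectors. With the adipocyte score they were 15 higher and 0 lower in thermogenic effectors.

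**Figure D2:**
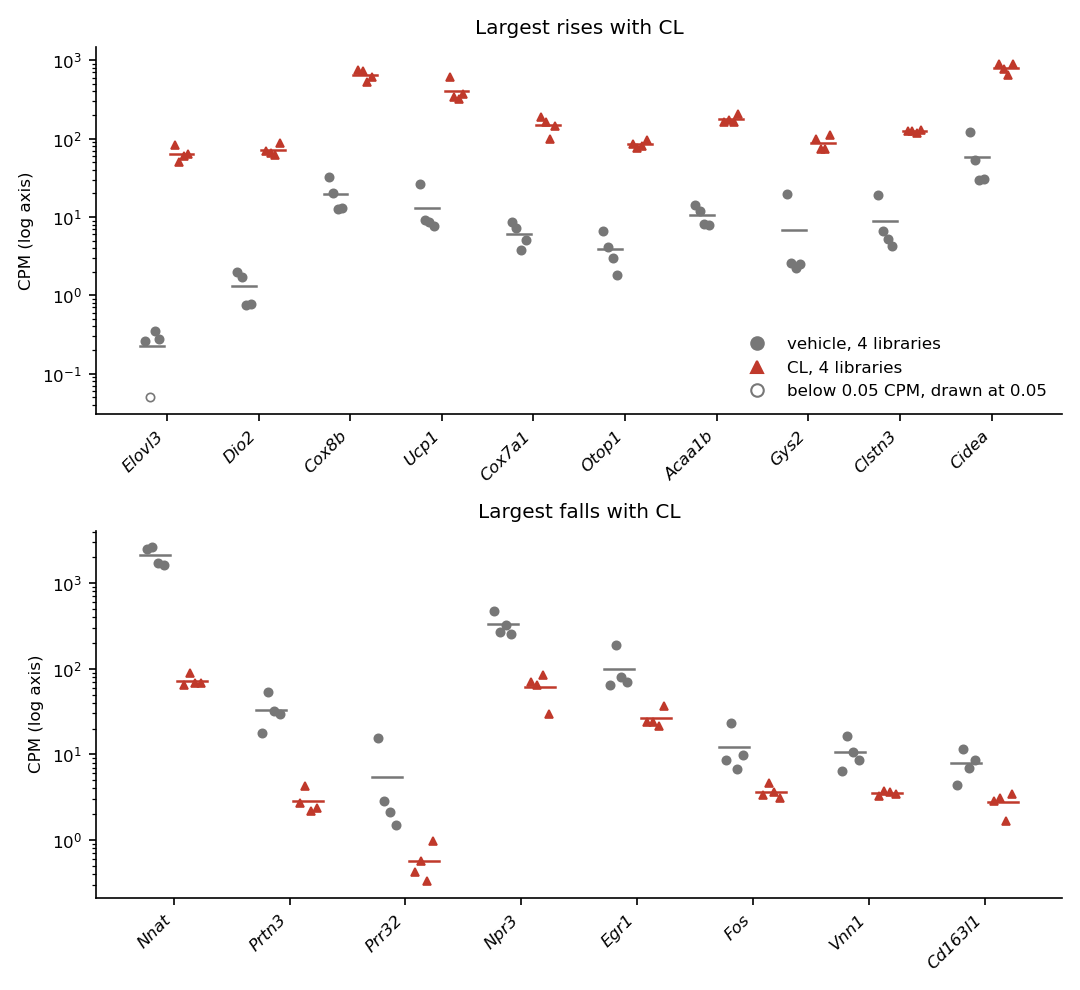
CPM (log axis) of the 10 genes with the largest rises and 8 of the 10 with the largest falls in each 2-month library; grey circles are vehicle, red triangles CL, and open circles values below 0.05 CPM. No gene shown overlaps between the groups.

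The largest falls were in genes of several kinds. Nnat, an imprinted gene that encodes a membrane proteolipid, stood at 2522, 2616, 1735 and 1610.1 CPM under vehicle and 65.0, 89.1, 67.9 and 67.5 CPM after CL (log2 change -4.87, SE 0.21, adjusted p = 1.7e-09). It was abundant under vehicle, and all CL libraries lay together far below. Npr3, the receptor that clears natriuretic peptides and so limits their action on fat cells, stood at 471, 272, 321 and 255 CPM under vehicle and 69.4, 63.7, 84.7 and 29.2 CPM after CL (log2 change -2.42, SE 0.28, adjusted p = 7.4e-06). The granule protease gene Prtn3, known from neutrophils, stood at 17.8, 53.8, 32.0 and 29.9 CPM under vehicle and 2.67, 4.30, 2.15 and 2.34 CPM after CL (log2 change -3.48, SE 0.56, adjusted p = 3.2e-04). Prr32 stood at 15.4, 2.84, 2.10 and 1.502 CPM under vehicle and 0.421, 0.571, 0.331 and 0.969 CPM after CL (log2 change -3.10, SE 0.77, adjusted p = 0.0056), with Young_Ctrl 1 far above the other vehicle libraries. The pantetheinase gene Vnn1 (-1.59, adjusted p = 0.0017) and the scavenger receptor gene Cd163l1 (-1.47, adjusted p = 0.0013) fell too, each without overlap between the groups. The immediate early genes Egr1 (-1.91, adjusted p = 1.8e-04) and Fos (-1.70, adjusted p = 0.012) fell as well, and Young_Ctrl 2 had the highest level of both. The log2 change of Prr32 was -1.87 without Young_Ctrl 1.

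To show what stands before these genes, the promoter windows of Dio2, Clstn3, Opa1 and Nnat are printed as examples. Each is described here and holds an exact motif of a factor known in thermogenic fat, as other named genes do. The windows are 300 bases (250 before and 50 after the annotated start), from RefSeq on GRCm38.p6, a later assembly than the mm9 of the counts, and capitals mark the motif. The cAMP response element TGACGTCA, bound by CREB, begins 95 bases before the start of Dio2 (chr12:90738989-90739288, minus strand) and spans that of Clstn3, beginning 1 base before it (chr6:124464735-124465034, minus strand). The exact palindromic site of NRF1, a regulator of nuclear genes of the respiratory chain, begins 59 bases before the start of Opa1 (chr16:29579084-29579383, plus strand) and 26 before that of Nnat (chr2:157559828-157560127, plus strand).
Dio2: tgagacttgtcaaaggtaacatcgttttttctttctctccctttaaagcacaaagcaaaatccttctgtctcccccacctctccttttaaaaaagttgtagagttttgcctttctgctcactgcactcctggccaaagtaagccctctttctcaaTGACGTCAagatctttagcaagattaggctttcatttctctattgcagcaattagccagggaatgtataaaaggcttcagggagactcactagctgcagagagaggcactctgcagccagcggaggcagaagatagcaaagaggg
Clstn3: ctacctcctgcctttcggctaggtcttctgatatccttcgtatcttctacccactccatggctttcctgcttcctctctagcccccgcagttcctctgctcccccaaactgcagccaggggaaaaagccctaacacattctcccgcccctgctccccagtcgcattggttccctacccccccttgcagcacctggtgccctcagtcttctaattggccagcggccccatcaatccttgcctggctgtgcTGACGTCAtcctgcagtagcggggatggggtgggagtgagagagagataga
Opa1: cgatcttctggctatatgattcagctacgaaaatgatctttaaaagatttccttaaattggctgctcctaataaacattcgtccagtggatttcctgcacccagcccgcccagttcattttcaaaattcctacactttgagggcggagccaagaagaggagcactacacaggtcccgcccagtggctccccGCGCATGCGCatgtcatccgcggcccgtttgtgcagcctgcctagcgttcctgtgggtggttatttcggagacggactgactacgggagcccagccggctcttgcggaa
Nnat: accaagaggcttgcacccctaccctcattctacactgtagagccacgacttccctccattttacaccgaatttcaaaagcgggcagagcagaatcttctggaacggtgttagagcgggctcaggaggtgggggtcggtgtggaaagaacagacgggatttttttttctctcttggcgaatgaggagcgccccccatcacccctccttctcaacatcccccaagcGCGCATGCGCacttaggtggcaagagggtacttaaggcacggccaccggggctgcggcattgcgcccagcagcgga

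Exact matches on either strand were counted over the 11924 of 15288 tested genes that have a window. TGACGTCA was in 3.28% of them, in 3.72% of the genes that rose, 2.75% of those that fell and 3.31% of those not called. The NRF1 site was in 2.05% of all, 3.23% of risers, 1.57% of fallers and 1.78% of the rest, and in 7.25% (5 of 69) of the respiratory chain subunit genes. The estrogen-related receptor element TNAAGGTCA was in 0.914% of all and 0.826% of risers, and the sterol element TCACNCCAC in 1.38% and 1.43%. In the 69 respiratory chain subunit genes TGACGTCA was in 5.8% (4 genes), TNAAGGTCA in 4.35% (3 genes) and TCACNCCAC in 0%. The 4 motifs were searched separately, and matches that overlap one another were each counted. A match is a string of letters and not a measured site, and Nnat, which fell, carries the same NRF1 string as Opa1, which rose. TGACGTCA is also in the windows of Elovl5, which rose, and of Phf8 and Btg2, which fell.

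Families whose members are used in different tissues showed which forms moved. The cytochrome c oxidase forms of brown fat and muscle, Cox8b (32.4, 20.2, 12.7 and 12.9 CPM under vehicle and 755, 726, 526 and 608 CPM after CL) and Cox7a1 (8.68, 7.13, 3.74 and 5.01 CPM under vehicle and 187, 162, 98.3 and 144 CPM after CL), rose by 5.09 and 4.65. Young_CL 4, with few muscle transcripts, lay above Young_CL 3 and below Young_CL 1 and 2 for both. No CL library overlapped vehicle. The forms of most tissues, Cox8a and Cox7a2, rose by 1.68 and 1.69, Cox4i1 by 1.99 and its lung form Cox4i2 by 0.87. Of the uncoupling proteins Ucp1 rose, the muscle and brown fat carrier Ucp3 rose by 1.45 and Ucp2 was not called (-0.34, adjusted p = 0.086). Gys2 rose by 3.93 and the muscle form Gys1 by 1.22. Carnitine palmitoyltransferase, the gate of fatty acid entry into mitochondria, moved in opposite directions: the muscle-type gene Cpt1b rose (22.4, 17.8, 10.46 and 9.46 CPM under vehicle and 186, 157, 161 and 270.3 CPM after CL, log2 change 3.72) while the liver-type gene Cpt1a fell (59.7, 52.7, 48.7 and 48.6 CPM under vehicle and 32.4, 35.8, 37.4 and 33.6 CPM after CL, log2 change -0.59), and neither overlapped between groups. Fabp3, Fabp4 and Fabp5, which carry fatty acids inside cells, rose by 3.56, 1.56 and 2.71. Of the elongases Elovl6 rose by 2.91 and Elovl5 by 0.52, Elovl1 fell (-0.32), Elovl7 was not called (-0.72, adjusted p = 0.072) and Elovl4 was below the filter with 1 to 3 counts under vehicle and 6 to 14 after CL. Of the kinases that switch off pyruvate dehydrogenase, Pdk4 rose by 2.35, Pdk2 by 1.70 and Pdk1 by 0.43, and Pdk3 fell (-0.46). In the creatine cycle, Ckmt2 had a log2 change of 2.57, adjusted p = 0.18, and its value moved with the muscle transcripts: it was -6.73 without the muscle-rich libraries and -0.69 with the muscle score as a covariate. Ckmt1 was below the filter, and Ckb was not called (log2 change -0.08, adjusted p = 0.79). Without Young_Ctrl 1 the log2 change of Ckb was 0.0318. Alpl, the phosphatase of the creatine cycle, rose by 0.96. Leaving out 1 library ended the call of Cox4i2 (adjusted p up to 0.127 in 7 fits, without Young_Ctrl 4 among them), Elovl1 (adjusted p up to 0.101 in 6 fits, without Young_Ctrl 1 among them), Pdk3 (adjusted p = 0.0628 without Young_Ctrl 4) and Alpl (adjusted p up to 0.0578 without Young_CL 2, Young_Ctrl 3 or 4). Called only with 1 library left out were Ucp2 (-0.43, adjusted p = 0.0265 without Young_Ctrl 1) and Elovl7 (-0.88, adjusted p = 0.0243 without Young_Ctrl 1). The log2 change of Cox4i2 was 1.32 without Young_Ctrl 2.

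**Figure D3:**
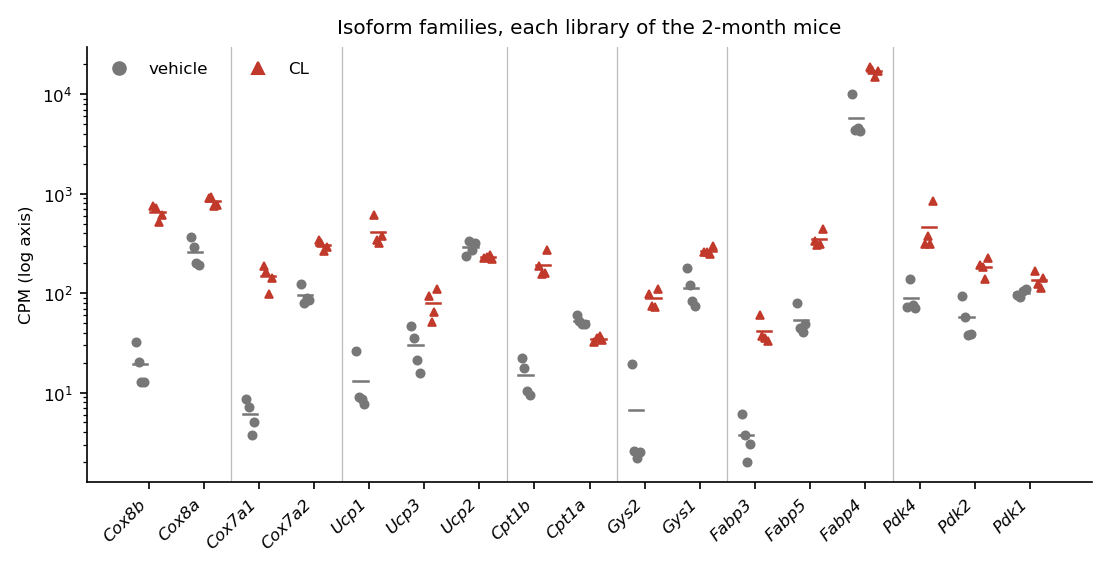
CPM (log axis) of family members in each 2-month library, grey circles vehicle and red triangles CL. Cox8b and Cox7a1 show no overlap between the groups, whereas Cpt1a lies below vehicle and Cpt1b above it.

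The nuclear genes of the respiratory chain, which passes electrons from fuel to oxygen and drives ATP synthesis, rose nearly throughout. In complex I 38 of 38 members rose while 0 fell (median 1.70), in complex II 4 of 4 members rose while 0 fell (median 1.86), in complex III 9 of 9 members rose while 0 fell (median 2.15), in complex IV 15 of 17 members rose while 0 fell (median 1.89) and in the ATP synthase 15 of 17 members rose while 0 fell (median 1.35). Ndufb8 of complex I stood at 144, 109, 94.4 and 91.9 CPM under vehicle and 560.4, 555, 372 and 442 CPM after CL, and Uqcrq of complex III at 122, 91.9, 69.8 and 68.2 CPM under vehicle and 619.8, 667, 490.2 and 511 CPM after CL. The groups did not overlap for either. Other examples are Ndufa9 (1.89), Sdhd (2.12), Uqcr10 (2.26), Cox5a (2.33), Cox6b1 (2.23), Atp5b (2.04) and Usmg5 (1.91). The calls without muscle-rich libraries were 37 higher and 0 lower in complex I, 4 and 0 in complex II, 9 and 0 in complex III, 13 and 0 in complex IV, and 15 and 0 in the ATP synthase. The B cell score left 36 higher and 0 lower in complex I, 4 and 0 in complex II, 9 and 0 in complex III, 13 and 0 in complex IV, and 14 and 0 in the ATP synthase. The adipocyte score left 37 higher and 0 lower in complex I, 4 and 0 in complex II, 9 and 0 in complex III, 13 and 0 in complex IV, and 14 and 0 in the ATP synthase.

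In the main fit mitochondrial ribosomal genes rose and cytosolic ones mostly fell, but the cytosolic list overlapped between the groups. Its mean log2 CPM was 8.19, 8.31, 8.47 and 8.59 in Young_Ctrl 1 to 4 and 8.26, 8.28, 8.18 and 7.95 in Young_CL 1 to 4. Of the mitochondrial ribosomal proteins, which translate the few subunits encoded in mitochondrial DNA, 74 of 77 members rose while 0 fell (median 0.95), with Mrpl12 at 79.1, 62.2, 55.3 and 55.5 CPM under vehicle and 259.8, 257, 221 and 221 CPM after CL. Of the cytosolic ribosomal proteins 5 of 85 members rose while 52 fell (median -0.35, with 3 rising without Young_CL 1 and 31 falling without Young_Ctrl 4), with Rps15a at 479, 522, 601 and 729 CPM under vehicle and 369, 347, 386 and 339.8 CPM after CL. Many cytosolic ribosomal genes have processed copies that can share reads, so single values are uncertain. Among the members that rose against the list were Rpl39l (2.11), Rps4l (0.95), Rps27l (0.95) and Rpl7l1 (0.27). Leaving out the muscle-rich libraries gave 69 higher and 0 lower in mitochondrial ribosomes, and 3 and 3 in cytosolic ribosomes. Adding the B cell score gave 35 higher and 0 lower in mitochondrial ribosomes, and 0 and 0 in cytosolic ribosomes. Adding the adipocyte score gave 69 higher and 0 lower in mitochondrial ribosomes, and 3 and 2 in cytosolic ribosomes. Other settings gave 34 lower in cytosolic ribosomes with young libraries alone. The call was lost on leaving out 1 library for Rpl7l1 (adjusted p up to 0.0733 without Young_CL 1 or 3, Young_Ctrl 2).

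Genes of the machinery that builds mitochondria rose in part, and fewer were called with the B cell score. In protein import 29 of 30 members rose while 1 fell (median 1.04), with Timm13, a chaperone of the intermembrane space, at 1.57 and the matrix chaperone gene Hspa9 at 1.68; the 1 fall was Tomm34 (-0.55). In coenzyme Q synthesis 13 of 13 members rose while 0 fell (median 1.19), with Coq9 at 2.02 and Coq6 at 1.82. In iron-sulfur cluster assembly 14 of 19 members rose while 1 fell (median 0.73), with Glrx5 at 1.502 and the iron importer gene Slc25a37 falling (-0.48). In heme synthesis and iron uptake 10 of 16 members rose while 0 fell (median 0.65), among them Alas1, the first enzyme of heme synthesis (1.198), the transferrin receptor gene Tfrc (0.98) and the glutathione carrier gene Slc25a39 (1.90). Genes of fusion, cristae and mitophagy followed, where 19 of 26 members rose while 0 fell (median 0.47). Apoo and Minos1, parts of the complex that shapes cristae, rose by 2.48 and 1.55, and the fusion gene Opa1 by 1.01. Of the genes that make and remodel cardiolipin 8 of 12 members rose while 1 fell (median 0.38), with the synthase gene Crls1 at 1.40, Hadha at 2.42 and Cds2 falling (-0.42). In maintenance and transcription of mitochondrial DNA 8 of 22 members rose while 3 fell (median 0.06): Lrpprc, which stabilises mitochondrial mRNA, rose by 0.96, Tk2 (-0.44), Top3a (-0.44) and Lig3 (-0.25) fell, and the polymerase gene Polg was not called (-0.06, adjusted p = 0.6). When the muscle-rich libraries were left out, the calls were 25 higher and 1 lower in import, 12 and 0 in coenzyme Q, 10 and 0 in iron-sulfur assembly, 8 and 0 in heme and iron uptake, 10 and 0 in fusion and mitophagy, 6 and 0 in cardiolipin synthesis, and 8 and 1 in mitochondrial DNA maintenance. Under the B cell score the calls were 17 higher and 0 lower in import, 8 and 0 in coenzyme Q, 5 and 0 in iron-sulfur assembly, 4 and 0 in heme and iron uptake, 6 and 0 in fusion and mitophagy, 3 and 0 in cardiolipin synthesis, and 2 and 1 in mitochondrial DNA maintenance. Under the adipocyte score the calls were 25 higher and 1 lower in import, 10 and 0 in coenzyme Q, 9 and 0 in iron-sulfur assembly, 7 and 0 in heme and iron uptake, 11 and 1 in fusion and mitophagy, 5 and 1 in cardiolipin synthesis, and 5 and 1 in mitochondrial DNA maintenance. Single libraries decided the call of Slc25a37 (adjusted p up to 0.053 without Young_CL 2, Young_Ctrl 3) and Lig3 (adjusted p up to 0.138 in 7 fits, without Young_CL 2 among them).

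**Figure D4:**
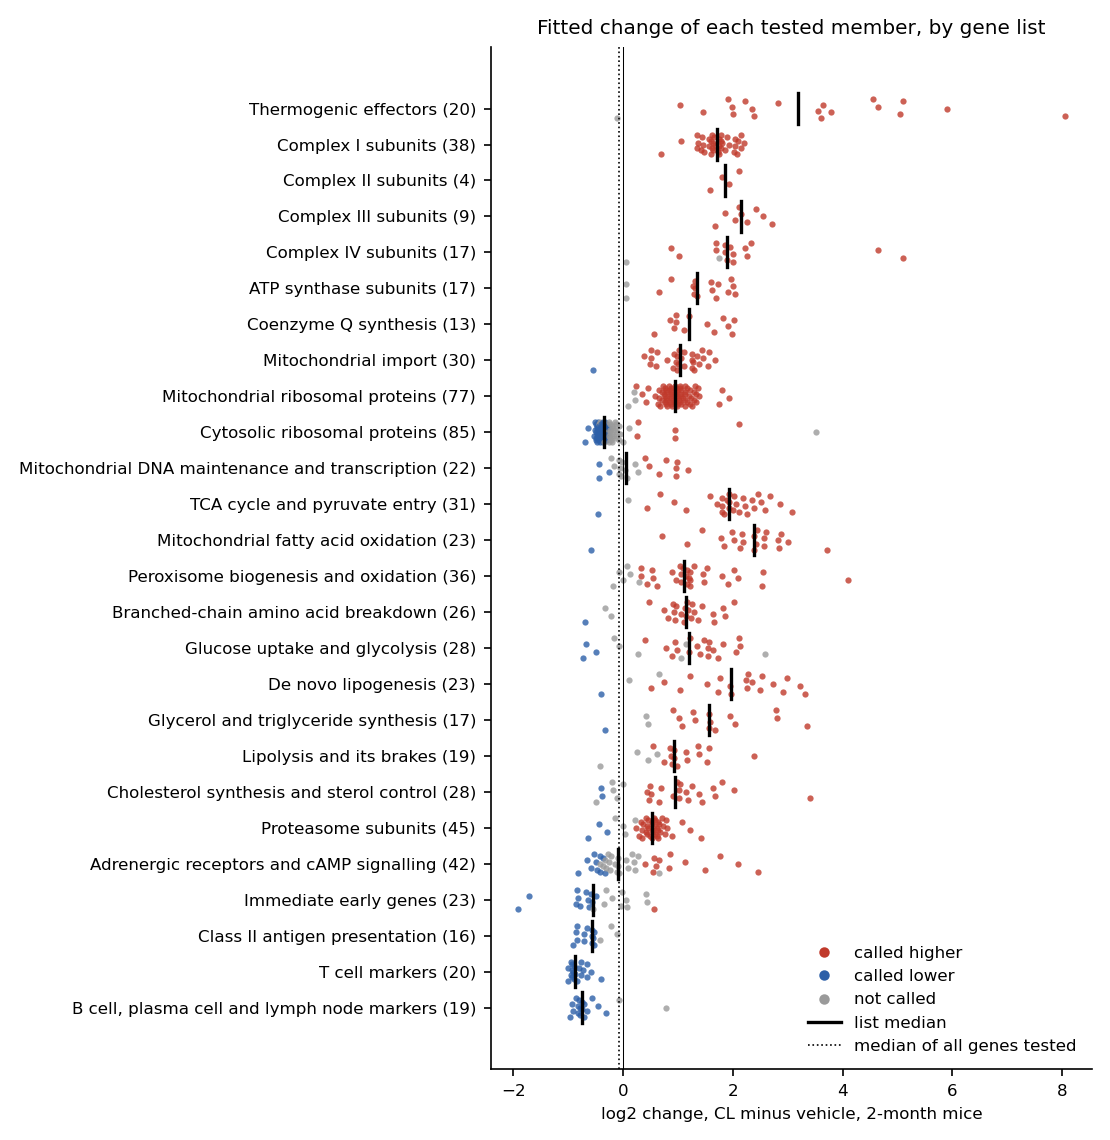
Fitted log2 change (CL minus vehicle) of every tested member of the main gene lists, with the list median as a bar and the median of all genes as a dotted line; red points rose, blue fell and grey were not called. Respiratory chain and fuel lists lie to the right of 0 and lymphocyte and cytosolic ribosome lists to the left.

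Among mitochondrial carriers 23 of 40 members rose while 6 fell (median 0.62). Slc25a34 stood at 1.05, 0.0860, 0.351 and 0.390 CPM under vehicle and 9.41, 10.3, 11.3 and 12.2 CPM after CL, and Slc25a20, which carries acylcarnitine into the matrix, at 61.8, 33.4, 35.3 and 32.8 CPM under vehicle and 285, 272, 246 and 340.2 CPM after CL. Both groups of libraries were separate for each. Falls were found for Slc25a12 (-0.39), Slc25a27 (-0.83), Slc25a37, Slc25a45 (-0.60), Slc25a47 (-0.73) and Slc25a53 (-0.59). Without the muscle-rich libraries the calls were 20 higher and 4 lower in carriers. With the B cell score they were 14 higher and 0 lower in carriers. With the adipocyte score they were 18 higher and 2 lower in carriers. A fit without 1 library put above the threshold the adjusted p of Slc25a12 (adjusted p up to 0.0723 without Young_CL 4, Young_Ctrl 3 or 4) and Slc25a47 (adjusted p up to 0.0868 without Young_CL 1, Young_Ctrl 1 or 2).

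Most genes of fuel oxidation rose. In the citric acid cycle and pyruvate entry 29 of 31 members rose while 1 fell (median 1.94). The pyruvate carrier subunit gene Mpc2 stood at 91.0, 54.6, 60.6 and 53.5 CPM under vehicle and 456, 400.2, 323 and 371 CPM after CL, without overlap between the groups. Dlst and Dld, parts of the ketoacid dehydrogenases, rose by 2.19 and 2.02. In mitochondrial fatty acid oxidation 22 of 23 members rose while 1 fell (median 2.38), and Cpt1a was the member that fell. Acadvl, Hadha and Acaa2, enzyme genes of this pathway, rose by 2.84, 2.42 and 2.56. In peroxisomes, which shorten very long chains, 30 of 36 members rose while 0 fell (median 1.12): Pex16, needed to build them, rose by 2.10, Hacl1 by 2.53 and Nudt7 by 2.02. In branched-chain amino acid breakdown 23 of 26 members rose while 1 fell (median 1.14), with the aminotransferase gene Bcat2 at 1.64, and the amino acid transporter gene Slc7a5 fell (-0.69). The calls without muscle-rich libraries were 28 higher and 0 lower in the citric acid cycle, 22 and 1 in fatty acid oxidation, 24 and 0 in peroxisomes, and 21 and 0 in branched-chain breakdown. The B cell score left 23 higher and 0 lower in the citric acid cycle, 20 and 1 in fatty acid oxidation, 9 and 0 in peroxisomes, and 6 and 0 in branched-chain breakdown. The adipocyte score left 26 higher and 0 lower in the citric acid cycle, 21 and 1 in fatty acid oxidation, 20 and 0 in peroxisomes, and 19 and 0 in branched-chain breakdown.

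Genes of glucose use rose in part. In glucose uptake and glycolysis 19 of 28 members rose while 3 fell (median 1.21). Slc2a4, the insulin-regulated transporter, stood at 328, 168, 115 and 97.2 CPM under vehicle and 464, 349.97, 358 and 447 CPM after CL, whereas Slc2a1, the transporter of most cells, stood at 33.0, 39.5, 39.7 and 36.4 CPM under vehicle and 21.6, 23.3, 24.0 and 24.4 CPM after CL. The first rose (1.196) and the second fell (-0.68), with no overlap in either. Pgk1, Pkm and Ldhb rose by 1.74, 1.35 and 2.11, and Slc2a3 (-0.73) and the hexokinase gene Hk1 (-0.49) fell. In glycogen metabolism 13 of 23 members rose while 1 fell (median 0.97): the phosphatase targeting subunits Ppp1r3b and Ppp1r3c rose by 2.97 and 2.76, and Phkg2 fell by a small amount (-0.21). Leaving out the muscle-rich libraries gave 16 higher and 2 lower in glucose use, and 11 and 1 in glycogen. Adding the B cell score gave 10 higher and 1 lower in glucose use, and 3 and 0 in glycogen. Adding the adipocyte score gave 14 higher and 2 lower in glucose use, and 10 and 0 in glycogen. Calls that rested on single libraries were those of Phkg2 (adjusted p up to 0.0898 without Young_CL 1 or 2, Young_Ctrl 2 or 4).

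Most genes of lipid synthesis rose, with fewer calls under the B cell score. In de novo lipogenesis 20 of 23 members rose while 1 fell (median 1.96). Acly, which makes cytosolic acetyl-CoA, stood at 280.4, 181, 156 and 149 CPM under vehicle and 2634, 1122, 1607 and 2212 CPM after CL, and Fasn, the fatty acid synthase, at 3123, 969.6, 705 and 575 CPM under vehicle and 13328, 9606, 10373 and 17074 CPM after CL. Thrsp rose by 2.54, the desaturase genes Scd1 and Scd2 by 1.22 and 1.77, the acyl-CoA synthetase gene Acsl3 by 1.73 and the regulator gene Srebf1 by 0.75. Mlxipl, the glucose-sensing regulator, was not called (0.65, adjusted p = 0.1), and the desaturase gene Fads1 fell (-0.40). In glycerol and triglyceride synthesis 14 of 17 members rose while 1 fell (median 1.56): glycerol kinase, Gyk, stood at 7.76, 6.79, 9.58 and 9.07 CPM under vehicle and 57.0, 56.8, 50.4 and 70.4 CPM after CL, with Gpd1 at 2.78, Agpat2 at 3.35, Pck1 at 1.01 and Lpin2 falling (-0.32). In cholesterol synthesis and its control 21 of 28 members rose while 2 fell (median 0.95), with Cyp51 at 1.80 and Nsdhl at 2.03; the regulator gene Srebf2 (-0.40) and Mylip, which degrades lipoprotein receptors (-0.38), fell. When the muscle-rich libraries were left out, the calls were 18 higher and 0 lower in lipogenesis, 14 and 0 in triglyceride synthesis, and 17 and 0 in cholesterol synthesis. Under the B cell score the calls were 13 higher and 1 lower in lipogenesis, 6 and 0 in triglyceride synthesis, and 11 and 0 in cholesterol synthesis. Under the adipocyte score the calls were 16 higher and 1 lower in lipogenesis, 10 and 0 in triglyceride synthesis, and 16 and 0 in cholesterol synthesis. With 1 library left out the adjusted p passed the threshold for Srebf1 (adjusted p = 0.0529 without Young_CL 1), Pck1 (adjusted p up to 0.0742 without Young_CL 2 or 4, Young_Ctrl 3 or 4) and Lpin2 (adjusted p up to 0.064 without Young_CL 1 or 2, Young_Ctrl 4). Called only with 1 library left out was Mlxipl (0.97, adjusted p = 0.0179 without Young_Ctrl 1).

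Genes that release, hold and take up fat rose in part. In lipolysis 15 of 19 members rose while 0 fell (median 0.93), with the lipase genes Lipe and Pnpla2 at 0.85 and 0.90, Pnpla8 at 1.39 and the prostaglandin receptor gene Ptger3, a brake on lipolysis, at 1.52. G0s2, an inhibitor of the first lipase, was not called (0.25, adjusted p = 0.44). Among lipid droplet proteins 10 of 14 members rose while 0 fell (median 1.13): Plin2 stood at 242, 163, 121 and 111 CPM under vehicle and 684, 489.8, 491 and 595 CPM after CL, whereas Plin4 was not called (-0.41, adjusted p = 0.25). In fatty acid uptake 15 of 23 members rose while 1 fell (median 0.98), with Apoc2, the activator of lipoprotein lipase, at 0.921, 0.774, 0.467 and 1.34 CPM under vehicle and 5.76, 7.11, 5.30 and 6.30 CPM after CL, the lipase gene Lpl at 1.57, its inhibitor gene Angptl4 not called (0.41, adjusted p = 0.34) and the receptor gene Lrp1 falling (-0.48). Without the muscle-rich libraries the calls were 8 higher and 0 lower in lipolysis, 6 and 0 in droplet proteins, and 14 and 0 in fatty acid uptake. With the B cell score they were 2 higher and 1 lower in lipolysis, 2 and 1 in droplet proteins, and 4 and 0 in fatty acid uptake. With the adipocyte score they were 6 higher and 0 lower in lipolysis, 3 and 1 in droplet proteins, and 11 and 1 in fatty acid uptake. Leaving out 1 library ended the call of Pnpla2 (adjusted p up to 0.0779 without Young_CL 4, Young_Ctrl 2, 3 or 4) and Lrp1 (adjusted p up to 0.152 in 6 fits, without Young_Ctrl 2 among them). The log2 change of Pnpla2 was 1.37 without Young_Ctrl 1.

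Upstream, of the receptors and cAMP signalling genes 12 of 42 members rose while 10 fell (median -0.10). The share called in either direction was 52.4%, near the 43.9% of all genes tested. The β3-adrenergic receptor gene Adrb3 stood at 592, 235, 260.5 and 231 CPM under vehicle and 308, 280.2, 299 and 359 CPM after CL and was not called (-0.08, adjusted p = 0.8), nor was Adrb1 (-0.30, adjusted p = 0.51). The kinase A subunit genes Prkar2b and Prkaca rose by 2.09 and 1.13, and Rgs2, a brake on G protein signals, stood at 27.0, 28.1, 30.3 and 30.0 CPM under vehicle and 165, 152, 115 and 203 CPM after CL. Falls were found for Adcy7 (-0.81), the receptor kinase genes Grk6 (-0.58) and Adrbk1 (-0.42), the arrestin genes Arrb1 (-0.37) and Arrb2 (-0.49), Creb1 (-0.43), Crtc2 (-0.32), Crtc3 (-0.53) and Akap12 (-0.48), while Grk5 rose (0.85). Of the phosphodiesterases, which break down cAMP and cGMP, 6 of 19 members rose while 4 fell (median -0.02). The share called was 52.6%, again near that of all genes. Pde3b (0.74), Pde4a (0.74) and Pde7b (1.05) rose and Pde4b (-0.80), Pde1b (-0.70), Pde2a (-0.44) and Pde7a (-0.58) fell. The natriuretic peptide receptor gene Npr1, which makes cGMP, stood at 81.9, 73.3, 55.8 and 48.4 CPM under vehicle and 59.2, 70.0, 66.4 and 63.3 CPM after CL and was not called (0.001, adjusted p = 1). The calls without muscle-rich libraries were 11 higher and 3 lower in receptors and cAMP signalling, and 5 and 0 in phosphodiesterases. The B cell score left 2 higher and 1 lower in receptors and cAMP signalling, and 1 and 0 in phosphodiesterases. The adipocyte score left 3 higher and 6 lower in receptors and cAMP signalling, and 2 and 3 in phosphodiesterases. The call was lost on leaving out 1 library for Creb1 (adjusted p up to 0.154 in 8 fits, without Young_Ctrl 3 among them). Called only with 1 library left out was Adrb3 (0.36, adjusted p = 0.00702 without Young_Ctrl 1).

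In insulin signalling 9 of 32 members rose while 6 fell (median 0.07). The share called was 46.9%, near the 43.9% of all genes tested. Pik3cb (1.495) and Akt2 (0.76) rose, and Tsc1 (-0.33), Rictor (-0.56), Tbc1d1 (-0.49), Ptpn1 (-0.34) and the inhibitor gene Socs3 (-0.76) fell. Among calcium pumps and channels 3 of 17 members rose while 3 fell (median 0.13, with 5 rising without Old_Ctrl 3), the falls being Atp2a3 (-0.78), Ryr3 (-0.76) and Itpr3 (-0.65); Sln was below the filter with at most 1 count per 2-month library. Of the potassium, sodium and chloride channels and pumps 5 of 23 members rose while 7 fell (median 0.03, with 4 falling without Young_CL 2): Kcnk2 (1.55) and Trpv1 (1.55) rose while the water channel gene Aqp1 fell (-0.74). Leaving out the muscle-rich libraries gave 3 higher and 1 lower in insulin signalling, 1 and 0 in calcium pumps and channels, and 5 and 2 in potassium, sodium and chloride channels. Adding the B cell score gave 1 higher and 0 lower in insulin signalling, 0 and 0 in calcium pumps and channels, and 3 and 1 in potassium, sodium and chloride channels. Adding the adipocyte score gave 1 higher and 2 lower in insulin signalling, 0 and 0 in calcium pumps and channels, and 4 and 2 in potassium, sodium and chloride channels. Further settings gave 4 lower in potassium, sodium and chloride channels with young libraries alone. Single libraries decided the call of Ryr3 (adjusted p up to 0.183 in 9 fits, without Young_Ctrl 2 among them).

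Among transcription regulators of beige fat 13 of 37 members rose while 3 fell (median 0.37). Ppargc1a, the coactivator of mitochondrial biogenesis, stood at 11.4, 7.39, 7.07 and 5.29 CPM under vehicle and 14.99, 14.3, 18.6 and 27.5 CPM after CL, and its partner genes Esrra and Esrrg rose by 1.21 and 1.83. Cebpb rose by 1.46 and Pparg, the master regulator of adipocytes, by 0.68, while Prdm16 was not called (0.36, adjusted p = 0.25). Ebf1 (-0.39), the corepressor gene Ncor1 (-0.37) and Foxp1 (-0.71) fell. In the circadian clock 5 of 21 members rose while 0 fell (median 0.08), with Nfil3 at 1.25 and Clock at 0.43, and Per2 (-0.14, adjusted p = 0.54) and Nr1d1 (0.33, adjusted p = 0.22) were not called. When the muscle-rich libraries were left out, the calls were 10 higher and 0 lower in transcription regulators, and 2 and 1 in the clock. Under the B cell score the calls were 3 higher and 0 lower in transcription regulators, and 0 and 0 in the clock. Under the adipocyte score the calls were 5 higher and 1 lower in transcription regulators, and 3 and 0 in the clock. Other settings gave 6 lower in transcription regulators without both Young_Ctrl 1 and Young_CL 4. A fit without 1 library put above the threshold the adjusted p of Pparg (adjusted p up to 0.111 in 6 fits, without Young_Ctrl 3 among them). Called only with 1 library left out were Prdm16 (0.67, adjusted p = 0.0243 without Young_Ctrl 2) and Nr1d1 (0.54, adjusted p = 0.0445 without Young_Ctrl 1). The log2 change of Pparg was 1.11 without Young_Ctrl 1.

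Protein quality genes differed by compartment. In the endoplasmic reticulum and integrated stress list 5 of 28 members rose while 4 fell (median 0.02, with 2 falling without Young_CL 1): Asns (1.27) and Dnajb9 (1.10) rose, Xbp1 (-0.45), Eif2ak3 (-0.45), Pdia4 (-0.25) and Shmt2 (-0.24) fell, and Atf4 was not called (0.08, adjusted p = 0.57). Of the proteasome subunits 38 of 45 members rose while 3 fell (median 0.53, with 1 falling without Young_Ctrl 4). The catalytic subunit gene Psmb5 rose (1.43) and the immune subunit genes Psmb8 (-0.43) and Psmb9 (-0.29) fell, as did Psme2b (-0.64). In NAD metabolism 10 of 23 members rose while 5 fell (median 0.24, with 3 falling without Young_CL 2), with Nampt (0.97), Nadk2 (0.91) and the mitochondrial deacylase gene Sirt3 (1.06) rising and Nmnat2 (-1.15), Cd38 (-0.37), Bst1 (-0.47), Sirt7 (-0.36) and Nnt (-0.55) falling. Of the antioxidant enzymes 20 of 31 members rose while 3 fell (median 0.74), with Sod2 at 2.03, and Gpx3 (-1.36) and Gclc (-0.40) falling. In lysosomes 15 of 36 members rose while 2 fell (median 0.32), with Ctsd (1.28), Atp6v1a (0.91) and Atp6v1e1 (0.86) rising and Ctsh (-0.44) falling. Without the muscle-rich libraries the calls were 4 higher and 0 lower in the stress list, 22 and 0 in the proteasome, 7 and 2 in NAD metabolism, 13 and 2 in antioxidant enzymes, and 6 and 3 in lysosomes. With the B cell score they were 1 higher and 1 lower in the stress list, 8 and 0 in the proteasome, 2 and 1 in NAD metabolism, 5 and 5 in antioxidant enzymes, and 0 and 1 in lysosomes. With the adipocyte score they were 2 higher and 2 lower in the stress list, 17 and 0 in the proteasome, 7 and 1 in NAD metabolism, 11 and 4 in antioxidant enzymes, and 1 and 1 in lysosomes. Under other settings there were 7 lower in the stress list with upper-quartile factors and 1 lower in the stress list with muscle score as covariate. Calls that rested on single libraries were those of Xbp1 (adjusted p up to 0.147 in 8 fits, without Young_Ctrl 1 among them), Pdia4 (adjusted p = 0.0709 without Young_CL 1), Shmt2 (adjusted p up to 0.104 in 6 fits, without Young_CL 2 among them) and Psmb9 (adjusted p = 0.0517 without Young_Ctrl 4). With 1 library left out the adjusted p passed the threshold for Psme2b (adjusted p up to 0.164 in 11 fits, without Young_Ctrl 4 among them), Cd38 (adjusted p up to 0.0934 without Young_CL 2 or 4, Young_Ctrl 3 or 4), Bst1 (adjusted p up to 0.125 without Young_CL 2 or 4, Young_Ctrl 3 or 4) and Ctsh (adjusted p up to 0.0878 without Young_CL 4, Young_Ctrl 4).

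Secreted proteins of fat changed one by one. Of the adipokines 7 of 19 members rose while 1 fell (median 0.41, with 4 falling without Young_Ctrl 4): the resistin gene Retn stood at 567, 377, 361 and 312 CPM under vehicle and 1518, 1438, 1322 and 1208 CPM after CL, Rbp4 rose by 1.62 and haptoglobin, Hp, fell (-1.05). Adiponectin, Adipoq, stood at 2602, 1366, 1049 and 877 CPM under vehicle and 2218, 2038, 2125 and 1977 CPM after CL and was not called (0.50, adjusted p = 0.13), nor was Lep (-0.47, adjusted p = 0.16). Retnla was not called (0.002, adjusted p = 1) and stood at 408, 308, 293 and 444 CPM under vehicle and 540.4, 416, 482 and 16.7 CPM after CL, where only Young_CL 4 was low. Of the factors secreted by thermogenic fat 4 of 22 members rose while 1 fell (median 0.19). Fndc5, the precursor of irisin, stood at 1.45, 1.46, 0.935 and 1.002 CPM under vehicle and 7.62, 8.56, 5.97 and 6.06 CPM after CL, Ephx2, which hydrolyses lipid epoxides, at 496, 159, 149 and 129 CPM under vehicle and 1181, 1071, 1147 and 1267 CPM after CL, and Nrg4, a growth factor of brown fat, rose by 0.89. Bmp4 fell (-0.67), Vegfa was not called (0.001, adjusted p = 1), and Fgf21 (0 or 1 count under vehicle, 1 to 6 after CL) and Bmp8b (at most 1 count) were below the filter. Of the imprinted genes 6 of 30 members rose while 3 fell (median 0.06, with 3 rising without Young_Ctrl 4 and 1 falling without Young_Ctrl 1): besides Nnat, Zrsr1 (-0.33) and Impact (-0.30) fell, and Snrpn (1.12), Mest (0.99) and H19 (3.26) rose. H19 stood at 5.13, 2.66, 2.34 and 1.22 CPM under vehicle and 21.7, 50.5, 24.4 and 3.88 CPM after CL, highest in the muscle-rich libraries, and Young_CL 4 overlapped the vehicle libraries. The calls without muscle-rich libraries were 6 higher and 4 lower in adipokines, 4 and 4 in factors of thermogenic fat, and 1 and 3 in imprinted genes. The B cell score left 2 higher and 5 lower in adipokines, 1 and 1 in factors of thermogenic fat, and 0 and 1 in imprinted genes. The adipocyte score left 4 higher and 6 lower in adipokines, 2 and 2 in factors of thermogenic fat, and 0 and 2 in imprinted genes. Further settings gave 4 lower in adipokines with upper-quartile factors. Leaving out 1 library ended the call of Bmp4 (adjusted p up to 0.0686 without Young_CL 4, Young_Ctrl 4), Zrsr1 (adjusted p up to 0.0905 without Young_CL 1, 2 or 4, Young_Ctrl 1), Impact (adjusted p up to 0.159 in 7 fits, without Young_Ctrl 3 among them) and Mest (adjusted p up to 0.0918 without Young_CL 2, Young_Ctrl 1, 3 or 4). The call was lost on leaving out 1 library for H19 (adjusted p = 0.0517 without Young_Ctrl 4). Called only with 1 library left out were Adipoq (0.93, adjusted p = 3.5e-04 without Young_Ctrl 1) and Retnla (0.40, adjusted p = 0.0463 without Young_CL 4).

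In growth factor and matrix pathways most members were not called. In TGF-β, activin and BMP signalling 3 of 35 members rose while 7 fell (median -0.16, with 1 rising without Young_CL 1 and 4 falling without Young_Ctrl 2): Inhbb (-0.88), Acvr1b (-0.66) and Smad7 (-0.83) fell, and Acvr1c (0.71), Bmpr1a (0.31) and Smad2 (0.16) rose. In Wnt signalling 1 of 33 members rose while 6 fell (median -0.32), with Axin2 (-0.66), Lef1 (-0.9997) and Nkd1 (-0.997) lower and Tcf7l2 (0.28) higher. In the IGF system 0 of 16 members rose while 5 fell (median -0.34, with 2 rising without Young_Ctrl 1), with Igfbp3 (-0.55) and Stc2 (-0.99) lower. Of the angiogenic genes 4 of 25 members rose while 3 fell (median -0.06, with 9 rising without Young_Ctrl 1): Apln rose by 1.74, and Fgf1 (-0.93), Fgf2 (-0.83) and Notch1 (-0.56) fell. In collagens 4 of 38 members rose while 3 fell (median -0.17, with 1 rising without Young_CL 2 and 1 falling without Young_CL 1), with Col10a1 (2.81) and Col15a1 (1.31) higher, Col17a1 (-0.74), Col23a1 (-0.74) and Col6a4 (-0.63) lower and Col1a2 not called (-0.24, adjusted p = 0.57). Of the matrix proteases and their inhibitors 8 of 46 members rose while 6 fell (median -0.25, with 5 rising without Young_Ctrl 4 and 3 falling without Young_CL 2): Adamts9 rose by 0.97, and Adamts1 (-0.34), Adamts5 (-0.96), Adamts6 (-0.79), Adamts10 (-0.61), Timp4 (-0.91) and Plaur (-0.55) fell. Leaving out the muscle-rich libraries gave 0 higher and 9 lower in TGF-β and BMP signalling, 0 and 14 in Wnt signalling, 0 and 6 in the IGF system, 2 and 3 in angiogenic genes, 2 and 6 in collagens, and 6 and 16 in matrix proteases. Adding the B cell score gave 0 higher and 0 lower in TGF-β and BMP signalling, 0 and 1 in Wnt signalling, 0 and 1 in the IGF system, 0 and 1 in angiogenic genes, 0 and 0 in collagens, and 0 and 1 in matrix proteases. Adding the adipocyte score gave 0 higher and 4 lower in TGF-β and BMP signalling, 0 and 4 in Wnt signalling, 0 and 2 in the IGF system, 0 and 4 in angiogenic genes, 0 and 2 in collagens, and 0 and 4 in matrix proteases. Other settings gave 11 lower in matrix proteases with upper-quartile factors, 7 higher in collagens with DESeq2, 10 lower in Wnt signalling with muscle score as covariate, 3 higher in the IGF system without both Young_Ctrl 1 and Young_CL 4 and 7 higher in angiogenic genes without both Young_Ctrl 1 and Young_CL 4. Single libraries decided the call of Inhbb (adjusted p up to 0.0641 without Young_CL 1, Young_Ctrl 1 or 2), Bmpr1a (adjusted p up to 0.0833 without Young_CL 1 or 2, Young_Ctrl 2 or 4), Smad2 (adjusted p up to 0.147 in 13 fits, without Young_CL 3 among them) and Tcf7l2 (adjusted p up to 0.107 in 6 fits, without Young_CL 1 among them). A fit without 1 library put above the threshold the adjusted p of Fgf2 (adjusted p up to 0.0895 without Young_CL 1 or 4, Young_Ctrl 1 or 2), Col17a1 (adjusted p up to 0.154 in 8 fits, without Young_Ctrl 2 among them), Col6a4 (adjusted p up to 0.122 in 5 fits, without Young_CL 1 among them) and Adamts1 (adjusted p up to 0.0771 without Young_CL 2 or 4, Young_Ctrl 1 or 2). Calls that rested on single libraries were those of Adamts6 (adjusted p up to 0.146 in 9 fits, without Young_CL 2 among them) and Plaur (adjusted p up to 0.116 in 6 fits, without Young_CL 2 among them). The log2 change of Timp4 was -0.56 without Young_Ctrl 1.

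Lymphocyte transcripts fell. Of the T cell markers 0 of 20 members rose while 20 fell (median -0.88), among B cell markers 0 of 19 members rose while 17 fell (median -0.75), among natural killer markers 0 of 14 members rose while 8 fell (median -0.66, with 5 falling without Young_CL 1) and in class II antigen presentation 0 of 16 members rose while 13 fell (median -0.57). The T cell gene Cd2 stood at 65.4, 72.7, 83.4 and 103 CPM under vehicle and 41.8, 41.6, 41.1 and 45.5 CPM after CL, and the plasma cell gene Mzb1 at 18.7, 24.4, 27.1 and 30.2 CPM under vehicle and 15.1, 12.8, 16.9 and 14.5 CPM after CL. All CL libraries lay below all vehicle libraries for both. Lck, a kinase of the T cell receptor (-0.76), Thy1 (-0.76), the cytotoxic gene Nkg7 (-0.77), Cd74 (-0.53) and H2-DMa (-0.55) fell as well. In whole tissue, fewer cells of a type and less RNA per cell cannot be told apart. Of these lists only the B cell markers gave a covariate score, and that list is counted here under its own score. When the muscle-rich libraries were left out, the calls were 0 higher and 4 lower in T cell markers, 0 and 1 in B cell markers, 0 and 0 in natural killer markers, and 0 and 3 in class II genes. Under the B cell score the calls were 0 higher and 0 lower in T cell markers, 1 and 0 in B cell markers, 0 and 0 in natural killer markers, and 0 and 0 in class II genes. Under the adipocyte score the calls were 0 higher and 0 lower in T cell markers, 0 and 1 in B cell markers, 0 and 0 in natural killer markers, and 0 and 0 in class II genes. Under other settings there were 5 lower in natural killer markers with muscle score as covariate.

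The interferon, chemokine, type 2 and immediate early lists held more falls than rises. Of the interferon response genes 1 of 28 members rose while 9 fell (median -0.27), with Mx1 (-1.18) and Irf1 (-0.57) lower and Rsad2 (0.45) higher. Of chemokines and their receptors 2 of 43 members rose while 17 fell (median -0.40, with 0 rising without Young_CL 4), with Cxcl12 (-0.42) and Cxcr6 (-0.88) lower and Cxcl11 (1.4997) and Ccr10 (0.87) higher. Of the macrophage markers 0 of 20 members rose while 2 fell (median -0.08, with 2 rising without Young_CL 4), Cd14 among the falls (-1.35). Their mean log2 CPM was 6.33, 6.24, 6.27 and 4.72 in Young_CL 1 to 4 and 5.93 to 6.36 under vehicle. The counts below without the muscle-rich libraries rest on Young_CL 4 alone. With the muscle score as a covariate, which keeps all libraries, 1 macrophage marker was called lower. Of the lipid-associated macrophage genes 4 of 16 members rose while 2 fell (median 0.28, with 0 falling without Young_CL 2), and Cd9 (-0.40) and Itgax (-0.77) fell. In type 2 immunity 0 of 10 members rose while 4 fell (median -0.27), with Il33 (-0.59), Gata3 (-0.89) and Il4ra (-0.66) lower. Of the immediate early genes 1 of 23 members rose while 12 fell (median -0.55, with 3 rising without Young_Ctrl 2), with Btg2 (-0.84) and Ier5 (-0.79) lower beside Egr1 and Fos, and Nr4a2 (0.57) higher. In the cell cycle list 5 of 38 members rose while 3 fell (median 0.13, with 1 rising without Young_CL 2 and 1 falling without Young_Ctrl 3 and 6 falling without Young_CL 3), with Mcm3 (-0.32), Mcm4 (-0.51) and Mcm6 (-0.42) lower. Without the muscle-rich libraries the calls were 0 higher and 3 lower in interferon genes, 2 and 5 in chemokines, 0 and 16 in macrophage markers, 4 and 3 in lipid-associated macrophage genes, 0 and 4 in type 2 immunity, 0 and 6 in immediate early genes, and 0 and 0 in the cell cycle. With the B cell score they were 0 higher and 0 lower in interferon genes, 0 and 1 in chemokines, 0 and 1 in macrophage markers, 1 and 1 in lipid-associated macrophage genes, 0 and 0 in type 2 immunity, 0 and 6 in immediate early genes, and 0 and 0 in the cell cycle. With the adipocyte score they were 0 higher and 2 lower in interferon genes, 0 and 1 in chemokines, 0 and 1 in macrophage markers, 2 and 1 in lipid-associated macrophage genes, 0 and 1 in type 2 immunity, 0 and 7 in immediate early genes, and 2 and 0 in the cell cycle. Further settings gave 6 lower in the cell cycle with upper-quartile factors. With 1 library left out the adjusted p passed the threshold for Rsad2 (adjusted p up to 0.161 in 11 fits, without Young_CL 1 among them), Cxcl11 (adjusted p up to 0.0621 without Young_CL 2 or 4, Young_Ctrl 2 or 3), Ccr10 (adjusted p up to 0.0817 without Young_CL 4, Young_Ctrl 3 or 4) and Cd9 (adjusted p up to 0.0865 in 6 fits, without Young_CL 4 among them). Leaving out 1 library ended the call of Itgax (adjusted p up to 0.0627 without Young_CL 2, Young_Ctrl 3 or 4), Il33 (adjusted p up to 0.051 without Young_Ctrl 3 or 4), Nr4a2 (adjusted p up to 0.123 in 6 fits, without Young_Ctrl 3 among them) and Mcm3 (adjusted p up to 0.107 without Young_CL 1 or 2, Young_Ctrl 3 or 4). The call was lost on leaving out 1 library for Mcm6 (adjusted p up to 0.0631 without Young_Ctrl 3 or 4).

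Of the stromal and progenitor markers 2 of 25 members rose while 5 fell (median -0.37, with 3 falling without Young_CL 1). Icam1 fell (-0.69), Pi16 was not called (-0.47, adjusted p = 0.55), and Lum (0.64) and Col15a1 rose. The mean log2 CPM of the list was 5.95, 6.10, 6.00 and 4.86 in Young_CL 1 to 4 and 5.95 to 6.10 under vehicle. The counts below without the muscle-rich libraries rest on Young_CL 4 alone. Of the endothelial markers 1 of 20 members rose while 0 fell (median -0.08, with 5 rising without Young_Ctrl 1), the riser being Emcn (0.47). Of the pericyte and smooth muscle markers 2 of 16 members rose while 2 fell (median 0.05, with 5 rising without Young_Ctrl 2 and 4 falling without Young_Ctrl 4), with Cspg4 higher (1.36) and Acta2 (-0.56) and Tagln (-0.56) lower. Among Schwann cell and nerve markers 2 of 18 members rose while 7 fell (median -0.47, with 4 falling without Young_Ctrl 4): the myelin gene Prx (-0.69) fell, and S100b and Pmp22 (0.39) rose against the list. S100b, which thermogenic adipocytes also secrete as a trophic factor for nerve fibres, stood at 5.26, 5.24, 4.44 and 4.95 CPM under vehicle and 36.1, 29.6, 18.2 and 32.7 CPM after CL (log2 change 2.57, SE 0.18, adjusted p = 5.6e-08). Its groups did not overlap. Of the adipocyte identity genes 15 of 22 members rose while 1 fell (median 0.75, with 9 rising without Young_CL 4), and Sncg, the γ-synuclein gene of white adipocytes, fell (662, 373, 226 and 207 CPM under vehicle and 141, 153, 123 and 127 CPM after CL, log2 change -1.43). Among epithelial markers 2 of 12 members rose while 1 fell (median 0.47, with 4 rising without Old_Ctrl 1), with Prlr (1.35) and Krt10 (0.77) higher and Cdh1 (-0.78) lower. Among mesothelial markers 1 of 3 members rose while 1 fell (median 0.65), with Lrrn4 higher (1.05) and Gpm6a lower (-1.03). Among erythrocyte markers 0 of 10 members rose while 0 fell (median 0.43, with 3 rising without Old_Ctrl 3), and Alas2 was not called (0.47, adjusted p = 0.062). Among muscle markers 3 of 26 members rose while 0 fell (median 3.07, with 0 rising without Young_Ctrl 3 and 8 rising without Old_Ctrl 3), and the called members were Tnnc1 (0.88), Myl1 (2.34) and Tpm2 (2.02). The calls without muscle-rich libraries were 2 higher and 17 lower in stromal markers, 0 and 2 in endothelial markers, 3 and 0 in pericyte markers, 1 and 4 in nerve markers, 6 and 0 in adipocyte identity, 0 and 1 in epithelial markers, 1 and 0 in mesothelial markers, 1 and 0 in erythrocyte markers, and 0 and 0 in muscle markers. The B cell score left 0 higher and 0 lower in stromal markers, 0 and 0 in endothelial markers, 1 and 0 in pericyte markers, 1 and 0 in nerve markers, 2 and 2 in adipocyte identity, 0 and 0 in epithelial markers, 0 and 0 in mesothelial markers, 0 and 0 in erythrocyte markers, and 0 and 0 in muscle markers. The adipocyte score left 0 higher and 1 lower in stromal markers, 0 and 4 in endothelial markers and 0 and 1 in pericyte markers. It left 1 and 2 in nerve markers, 5 and 4 in adipocyte identity and 0 and 1 in epithelial markers. It left 0 and 0 in mesothelial markers, 0 and 0 in erythrocyte markers and 0 and 0 in muscle markers. The adipocyte score averages the adipocyte identity list, so that list is counted here under its own score. Other settings gave 18 higher in muscle markers with DESeq2, 18 higher in muscle markers with young libraries alone, 9 higher in adipocyte identity with young libraries alone and 4 lower in nerve markers with muscle score as covariate. Single libraries decided the call of Lum (adjusted p up to 0.118 in 6 fits, without Young_CL 2 among them), Emcn (adjusted p up to 0.109 in 6 fits, without Young_Ctrl 4 among them), Acta2 (adjusted p up to 0.122 in 5 fits, without Young_Ctrl 2 among them) and Pmp22 (adjusted p up to 0.0777 without Young_CL 2 or 3, Young_Ctrl 3 or 4). A fit without 1 library put above the threshold the adjusted p of Krt10 (adjusted p up to 0.106 without Young_CL 1, Young_Ctrl 4), Lrrn4 (adjusted p up to 0.0892 without Young_CL 4, Young_Ctrl 2, 3 or 4), Tnnc1 (adjusted p up to 0.0726 without Young_CL 3, Young_Ctrl 3 or 4) and Myl1 (adjusted p up to 0.0775 without Young_CL 1 or 2, Young_Ctrl 3 or 4). Calls that rested on single libraries were those of Tpm2 (adjusted p up to 0.113 in 8 fits, without Young_CL 2 among them). Called only with 1 library left out was Alas2 (0.47, adjusted p = 0.0136 without Old_Ctrl 3).

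The size of the CL response at 2 months was compared with that at 12 months by the interaction of age and CL, fitted on all 15 libraries. It was called for 1083 genes (7.08%), 577 with a change more positive at 2 months (3.77%) and 506 more negative (3.31%). Among these, the genes called higher at 2 months had a more positive change there for 369 and a more negative one for 19. Those called lower had a more negative change for 253 and a more positive one for 13. Both sets were picked by their change at 2 months, which is part of the interaction. Their direction was therefore largely set by the choice. The count of genes called in the interaction is sensitive to single libraries: it ran from 431 without Old_Ctrl 4 to 2070 without Young_CL 4.

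Nnat showed the smallest p. At 12 months it stood at 2139, 2838 and 2607 CPM under vehicle and 1811, 2153, 1885 and 2017 CPM after CL, where the groups overlapped (a difference of -4.51, SE 0.27, adjusted p = 4.4e-07). Npr3 stood at 363, 306 and 276 CPM under vehicle and 665, 763, 977 and 662 CPM after CL at 12 months, where it went the other way (a difference of -3.70, SE 0.41, adjusted p = 3.6e-04). Abat, which degrades the transmitter GABA, stood at 11.4, 8.68, 6.89 and 5.95 CPM under vehicle and 5.02, 4.87, 4.64 and 3.15 CPM after CL at 2 months and at 20.6, 21.4 and 21.6 CPM under vehicle and 65.3, 77.9, 67.0 and 67.0 CPM after CL at 12 months (a difference of -2.55, SE 0.25, adjusted p = 1.8e-04). Its direction differed between the ages. Eepd1 also fell at 2 months (-0.99) and had a change of 1.08 at 12 months (a difference of -2.07, SE 0.25, adjusted p = 7.6e-04), as had Phf8 (-0.43 and 0.94, a difference of -1.38, SE 0.15, adjusted p = 3.6e-04). Cd109 stood at 2.76, 1.55, 3.10 and 2.56 CPM under vehicle and 6.88, 8.87, 4.64 and 6.46 CPM after CL at 2 months and at 37.0, 12.6 and 23.8 CPM under vehicle and 6.78, 4.89, 5.08 and 4.95 CPM after CL at 12 months (a difference of 3.60, SE 0.43, adjusted p = 7.6e-04). The baseline of Cd109 under vehicle was higher at 12 months. Ankrd29 had changes of -1.46 and 0.15 (a difference of -1.61, SE 0.20, adjusted p = 8.8e-04), and Acly of 3.31 and 0.57 (a difference of 2.73, SE 0.34, adjusted p = 8.8e-04).

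By gene group, larger rises at 2 months were found among genes of the respiratory chain, mitochondrial import and ribosomes, and de novo lipogenesis. Of complex I subunits 22 of 38 had a more positive change at 2 months and 0 a more negative one, where the median change was 1.70 at 2 months and 0.98 at 12 months. The counts were 7 of 17 for complex IV, 12 of 30 for import, 16 of 77 for mitochondrial ribosomes and 8 of 23 for lipogenesis. A more positive change was found for 3.77% of all genes. Cholesterol synthesis had 2 of 28 more positive and 1 more negative, and triglyceride synthesis 2 of 17 more positive. The cell cycle list had 11 of 38 more positive and 1 more negative, with medians of 0.13 and -0.55. With the muscle score as a covariate the interaction was called for 684 genes, against 1083 in the main fit. The part of muscle transcripts in these counts was not tested. Of the thermogenic effectors 4 of 20 passed, among them Dio2 (a difference of 2.41, SE 0.50, adjusted p = 0.012) and Letmd1 (a difference of 1.07, SE 0.19, adjusted p = 0.0056), with medians of 3.19 and 2.29. Fndc5 changed by 2.60 at 2 months and -0.15 at 12 (a difference of 2.75, SE 0.29, adjusted p = 3.6e-04), and S100b by 2.57 and 0.67 (a difference of 1.90, SE 0.25, adjusted p = 9.7e-04). Fgf1 fell at 2 months and had a change of 0.64 at 12 months (a difference of -1.58, SE 0.30, adjusted p = 0.0085). For T cell markers 1 of 20 passed the interaction, and the median change was -0.88 and -1.15.

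**Figure D5:**
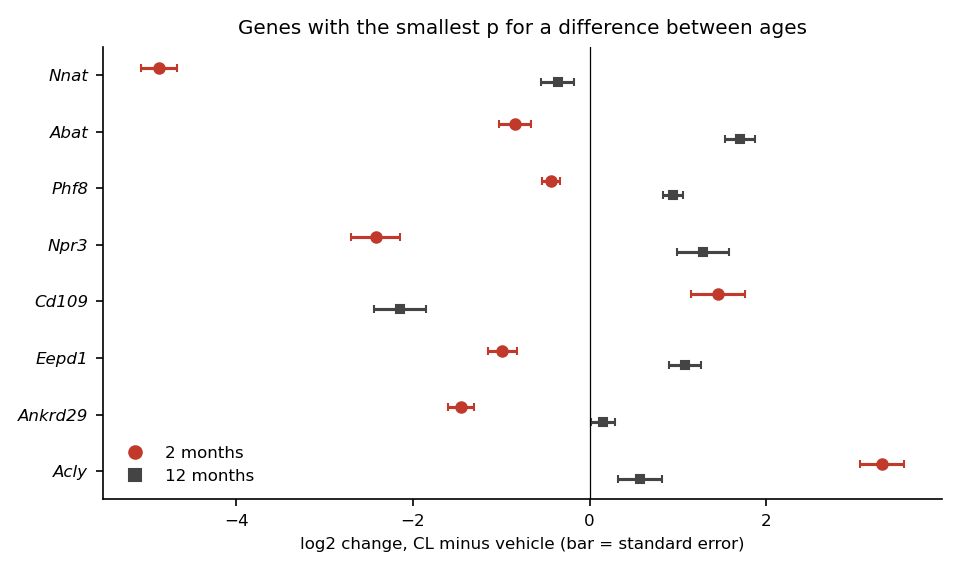
Log2 change (CL minus vehicle, bars are standard errors) of 8 interaction genes, red circles at 2 months and dark squares at 12 months. They have the smallest interaction p among genes also called at 2 months and averaging a log2 CPM of 3 or more. Npr3, Abat, Eepd1 and Phf8 lie on opposite sides of 0 at the 2 ages, and Nnat lies far below 0 at 2 months and near 0 at 12 months.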

How the data were processed

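PolyA RNA of inguinal fat was extracted with Trizol and a PureLink kit and made into TruSeq libraries, per the labels' protocols. Alignment to mm9 used STAR, and genes were counted with featureCounts of Subread, per the submitters' processing notes; versions are not given in the sources used here. The deposited counts, 1 integer table of 24015 genes, were used unchanged. Whether counting used strand is not stated, so overlapping antisense genes cannot be told apart.

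The filterByExpr function kept 15288 genes, and TMM scaled the libraries. A quasi-likelihood model was fitted with edgeR 4.0.16 (R 4.3.3) on all 15 libraries, with robust dispersions and a mean for each group. A gene was called at a Benjamini-Hochberg adjusted p under 0.05 over all tested genes, and every adjusted p printed is of this kind. The SE was obtained as the size of the log2 change divided by the root of its F. Levels are TMM-scaled CPM. List scores average the log2 CPM of their members (prior count 2). Among the libraries of this age, 3 counts correspond to 0.491 CPM in the shallowest (Young_CL 3) and to 0.098 CPM in the deepest (Young_CL 1).

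The genes and the 72 lists were chosen with earlier results of these data known, so lists are described by counts and medians without a test. Genes are named by a rule. It takes the 10 largest rises and 10 largest falls (log2 CPM averaging 3 or more, no overlap). It also takes up to 6 members of a list by p and 3 by level, members called against their list, family members and a panel. Last come the 8 interaction genes with the smallest p among those also called at 2 months and averaging a log2 CPM of 3 or more. Which list members to describe within this rule was decided with the values in view. Every panel and family gene, the smallest-p member of each list and every member called against its list were included, whether or not their calls held under the alternatives, except for some that are not reported here. Slc29a1 was named after its value was seen. Beside list counts, fits leaving out 1 library are given where they moved a count by over 1.5 times (by at least 2 members for counts under 3), and other settings, apart from the muscle-rich libraries and the B cell and adipocyte scores, where they also moved it by at least 3 members. Of 309 named genes tested, 286 were called, 156 higher and 130 lower.

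Other settings tried were normalisation by RLE or upper quartiles, the voom method of limma 3.58.1, DESeq2 1.42.0, no low-count filter, a stricter one (CPM of 1 in 3 libraries and a mean count of 10), replicate number as a block, the young libraries alone, omission of each library or of the 5 muscle-rich ones, and muscle or B cell scores as covariates. The adipocyte covariate and the joint omission of Young_Ctrl 1 and Young_CL 4 were added after seeing the data. Simulated data with these group sizes and 15288 genes gave back, in the young comparison, 83% of 100 genes with a true 2-fold difference and 99% of 100 with a 4-fold one, and 7.14% of its calls were unchanged genes. Unlike the data, the simulated libraries did not differ in cell mixture and few of their genes were changed. These shares therefore do not measure the error among the genes called here. No pair of young libraries agreed within sampling noise (smallest chi-square per degree of freedom 5.91).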

Additional observations from a re-analysis of the deposited data

Results flagged for a closer look

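In some genes and list scores 1 library lay far from the other 3 of its group. Its gap to its nearest neighbour was more than 0.829 of the whole range, which chance gives in about 1 of 20 groups. The rule was applied to 309 named genes and 72 list scores in 2 groups each, so many such cases would arise by chance. The gap as a share of the range is given for each. In Young_CL 1 it was found for Tagln (lowest, 0.84). In Young_CL 2 it was found for Nnat (highest, 0.86) and G0s2 (highest, 0.847). In Young_CL 3 it was found for Shmt2 (highest, 0.88). In Young_CL 4 it was found for Hacl1 (highest, 0.837), Axin2 (lowest, 0.991), Retnla (lowest, 0.925), Pi16 (lowest, 0.955), Ebf1 (highest, 0.846), Arrb2 (lowest, 0.888), Adamts5 (lowest, 0.984), Ccr10 (highest, 0.84), Ctsh (lowest, 0.859), the Calcium cycling pumps and channels list score (lowest, 0.932), the TGF-beta, activin and BMP signalling list score (lowest, 0.848), the Wnt ligands, receptors and antagonists list score (lowest, 0.908), the Matrix proteases, inhibitors and lysyl oxidases list score (lowest, 0.84), the Progenitor and stromal markers list score (lowest, 0.886), the Macrophage markers list score (lowest, 0.939) and the Skeletal muscle markers list score (lowest, 0.891). In Young_Ctrl 1 it was found for Ucp1 (highest, 0.868), Gys2 (highest, 0.934), Letmd1 (highest, 0.849), Fabp4 (highest, 0.917), Elovl6 (highest, 0.947), Adrb3 (highest, 0.874), Sdhd (highest, 0.924), Slc25a20 (highest, 0.881), Opa1 (highest, 0.923), Slc2a3 (lowest, 0.92), Asns (highest, 0.857), Ephx2 (highest, 0.842), Btg2 (lowest, 0.869), Atp2a3 (lowest, 0.857), Grk6 (lowest, 0.851), Zrsr1 (highest, 0.84), Eif2ak3 (lowest, 0.868), Tbc1d1 (lowest, 0.976), Tsc1 (lowest, 0.853), Col6a4 (lowest, 0.895), Cd9 (lowest, 0.838), the Mitochondrial ribosomal proteins list score (highest, 0.854), the Mitochondrial import list score (highest, 0.868) and the Iron-sulfur cluster assembly list score (highest, 0.877). In Young_Ctrl 2 it was found for Elovl3 (lowest, 0.829), Pdk4 (highest, 0.893), Elovl5 (lowest, 0.923), Acvr1b (lowest, 0.845), Prx (highest, 0.847) and Notch1 (highest, 0.863). In Young_Ctrl 3 it was found for Top3a (highest, 0.938). In Young_Ctrl 4 it was found for the Interferon response list score (highest, 0.959).

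Named genes whose change with CL differed between the ages are listed with the difference of the log2 changes, 2 months minus 12 months, tested by the interaction term of edgeR at an adjusted p under 0.05. The change was more positive at 2 months for Cd109 3.60, Fndc5 2.75, Acly 2.73, Dio2 2.41, Ppp1r3b 2.22, Apln 2.11, Elovl6 2.06, Ppp1r3c 1.98, Plin2 1.95, S100b 1.90, Slc25a34 1.83, Apoc2 1.82, Thrsp 1.79, Lum 1.76, Fabp5 1.73, Col1a2 1.70, Cyp51 1.35, Cox5a 1.29, Acaa2 1.28, Uqcr10 1.22, Pkm 1.16, Cebpb 1.14, Rgs2 1.13, Pgk1 1.12, Slc25a20 1.10, Sdhd 1.08, Scd2 1.08, Timm13 1.07, Letmd1 1.07, Uqcrq 1.06, Ndufb8 1.03, Gyk 0.99, Cox6b1 0.99, Mrpl12 0.96, Nfil3 0.95, Pex16 0.94, Tfrc 0.93, Rps27l 0.93, Acsl3 0.92, Mpc2 0.87, Dlst 0.78, Cox4i1 0.77, Dnajb9 0.77, Usmg5 0.76, Psmb5 0.73, Minos1 0.71, Elovl5 0.65, Ndufa9 0.61, Esrra 0.59, Mcm3 0.58 and Rpl7l1 0.51. It was more negative at 2 months for Nnat -4.51, Npr3 -3.70, Prr32 -3.55, Vnn1 -2.69, Abat -2.55, Sncg -2.12, Eepd1 -2.07, Inhbb -1.95, Mest -1.86, Lep -1.84, Ankrd29 -1.61, Nkd1 -1.60, Acta2 -1.60, Fgf1 -1.58, Adamts5 -1.38, Phf8 -1.38, Stc2 -1.38, Igfbp3 -1.18, Aqp1 -1.06, Pde7a -0.81, Acvr1b -0.76, Col23a1 -0.75, Ncor1 -0.72, Tagln -0.67, Notch1 -0.65, Slc2a1 -0.56 and Cds2 -0.49.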

How the results depend on the processing

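The count of called genes at 2 months kept within 1.5 times of its value under both other normalisations, DESeq2, limma-voom, both filters, the replicate block (6186), the young libraries alone and the muscle score, and ran from 5418 to 7609 over the fits leaving out 1 library. It moved to 2974 (1859 higher, 1115 lower) without the 5 muscle-rich libraries, to 928 (689 and 239) with the B cell score and to 2255 (1406 and 849) with the adipocyte score; in these 3 fits 2387, 869 and 1918 of the genes kept their call and direction. The interaction count moved to 1871 with DESeq2, 641 with the replicate block, 203 without the muscle-rich libraries, 684, 1798 and 2372 with the muscle, B cell and adipocyte scores and 2724 without both Young_Ctrl 1 and Young_CL 4, and ran from 431 to 2070 over the fits leaving out 1 library; the cause was not tested. Replicate numbers did not pair the samples: deviations of same-numbered libraries correlated at 0.0454, 0.105, -0.0416 and -0.134, and under the block 271 of 286 named called genes kept their call.

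Of the 286 named genes called, 227 kept direction and call in every fit leaving out 1 library and 101 in every alternative; 109 were still called in the same direction with the B cell score, 160 with the adipocyte score and 170 without the muscle-rich libraries. Genes whose log2 change took the other sign are given by setting. With RLE factors: Npr1 -0.007843, Vegfa -0.009570 and Retnla -0.006355. With upper-quartile factors: Npr1 -0.08284, Vegfa -0.08139, Retnla -0.08638 and Atf4 -0.006854. With limma-voom: Adrb1 0.06718 and Retnla -0.87. With DESeq2: Npr1 -0.006158, Vegfa -0.009685 and Retnla -0.006524. With no filter on low counts: Npr1 -0.002957, Vegfa -0.003517 and Retnla -0.002558. With stricter filter: Npr1 -0.0005455 and Vegfa -0.0008603. With replicate block: Retnla -0.16. With young libraries alone: Retnla -0.002695. Without the 5 muscle-rich libraries: Ckmt2 -6.73, Adrb3 0.13, Npr1 -0.03348, Polg 0.08882, Per2 0.26, Retnla -4.45, Atf4 -0.11 and Tpm2 -0.33. With muscle score as covariate: Ckmt2 -0.69, Npr1 -0.03003, Retnla -0.99 and Atf4 -0.01281. With B cell and lymph node score as covariate: Npr1 -0.25, Vegfa -0.07373, Polg 0.10, Retnla -0.49, G0s2 -0.20, Pnpla2 -0.09767, Adipoq -0.37, Atf4 -0.01953, Itpr3 0.08431, Adrbk1 0.01256, Creb1 0.11, Lig3 0.03986, Slc25a37 0.18, Slc25a53 0.08161, Psme2b 0.35, Col6a4 0.06769, Adamts6 0.70 and Emcn -0.01181. With adipocyte score as covariate: Nr4a2 -0.05748, Npr1 -0.36, Vegfa -0.48, Elovl7 0.06298, Angptl4 -0.29, G0s2 -0.007550, Mlxipl -0.07386, Nr1d1 -0.13, Pparg -0.07710, Pnpla2 -0.07015, Adipoq -0.30, Creb1 0.16, Psme2b 0.28, Cd38 0.0008224, Bst1 0.01802 and Emcn -0.09507. Without both Young_Ctrl 1 and Young_CL 4: Ckb 0.10, Adrb3 0.29, Lep 0.04940, Vegfa -0.005893 and Adrb1 0.28. With 1 library left out the ranges were -0.20 to 0.03185 for Ckb, -0.22 to 0.36 for Adrb3, -0.56 to 0.32 for Adrb1, -0.25 to 0.40 for Retnla, -0.12 to 0.13 for Npr1, -0.19 to 0.18 for Vegfa, -0.02551 to 0.64 for Angptl4 and -0.47 to 0.006119 for Col1a2.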
